A study of Mus musculus with 6 samples.

Results

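The 10 genes described here encode beta-catenin (Ctnnb1), the 4 Tcf/Lef DNA-binding partners of beta-catenin (Lef1, Tcf7, Tcf7l1 and Tcf7l2), the destruction complex scaffolds Axin1 and Apc, and 3 feedback inhibitors of the pathway (Axin2, Nkd1 and Notum). They were chosen by symbol from the 23478 genes of the deposited count table, and all 10 were found and tested. The RNA came from mouse tracheas at embryonic day 13.5, with 3 libraries of muscle cells, collected by the GFP of a gamma smooth muscle actin reporter (gamma SMA eGFP), and 3 libraries of epithelial cells, collected by surface Epcam. All 6 libraries carry the genotype Bmp4 f/f; gamma SMA eGFP and are titled controls. The labels name no Cre for any of them, so both groups share the floxed Bmp4 alleles and the reporter. The series concerns Wnt signalling in the formation of tracheal muscle and cartilage. The comparison sets the RNA levels of these 10 genes of that pathway side by side in the 2 sorted populations. Nothing in the labels says whether replicates came from separate embryos or litters, so p-values measure the spread between these libraries, which may be technical.

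In the canonical Wnt pathway, Axin and Apc hold beta-catenin in a complex in which it is phosphorylated and marked for breakdown. A Wnt signal stops this, beta-catenin accumulates, enters the nucleus and binds Tcf/Lef factors, which otherwise sit on target genes with Groucho/TLE co-repressors. Lef1 and Tcf7 are mostly activators and are themselves Wnt targets in many tissues, Tcf7l1 is mostly a repressor, and Tcf7l2 can be either. Axin2, Nkd1 and Notum are induced by the pathway in many tissues and dampen it: Axin2 rebuilds the destruction complex, Nkd1 binds Dishevelled, and Notum is a secreted enzyme that removes the lipid from Wnt ligands. In the developing trachea, Wnt signals from the epithelium act on the surrounding mesenchyme, from which muscle and cartilage form. Beta-catenin has a separate role in adherens junctions, where it links cadherins to alpha-catenin, so its RNA level does not by itself reflect Wnt signalling.

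Total counts ranged from 11847432 to 54848820 per library. In every library, 73.8% to 79.6% of the gene counts from 1 to 19 were even numbers, against 49.4% to 50.6% of counts of 100 or more. Low counts thus often came in even steps and may stand for fewer independent fragments than their size, and the source of this was not tested. Levels are given in CPM, counts scaled to a common library size, with TMM factors that adjust for differences in RNA composition. The 10 smooth muscle markers summed to between 4137 and 17828.5 CPM in the muscle libraries and to between 122 and 154 CPM in the epithelial ones. The 10 epithelial markers summed to between 14.0 and 28.4 CPM in muscle and to between 3472 and 4648 CPM in epithelium. Each list was thus higher in the population sorted for it, and the lists include the sort genes Actg2 and Epcam themselves. Muscle replicate 2 had the lowest sum of smooth muscle markers, 4137 CPM, below its 9834 CPM of fibroblast and mesenchyme markers. Olfactory and vomeronasal receptor genes, which are typical of sensory neurons of the nose, gave a mean of 0.60, 1.24 and 0.43 CPM per gene in muscle replicate 2, epithelium replicate 2 and epithelium replicate 3, and at most 0.025 CPM in the other 3 libraries. The lowest of the 10 genes, in TMM-scaled CPM, stood 2.86-fold above that background in both epithelium replicates 2 and 3. It stood at least 10.4-fold above it in the others. The background was scaled by total counts without TMM factors, so these ratios are approximate. In bulk RNA, fewer cells that express a gene and less RNA per cell cannot be told apart.

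Lef1 and Tcf7 were higher in muscle, and no gene of the 10 was called higher in epithelium. Of the 10 genes, 2 passed the quasi-likelihood test of edgeR (adjusted p under 0.05), where 10.7% of all 19375 tested genes did. Both were higher in muscle, as were 6.58% of all tested genes. None passed toward epithelium in edgeR, DESeq2 or limma-voom, where 4.11% of all tested genes did in edgeR, and none had an unadjusted p under 0.05 in that direction. Toward muscle, 5 of the 10 had an unadjusted p under 0.05, a cut for which no share of all tested genes was computed. In the same 5, Lef1, Tcf7, Tcf7l2, Axin2 and Nkd1, every muscle library was above every epithelial one, against 16.4% of all tested genes. None of the 10 had all epithelial libraries above all muscle ones, against 10.5% of all tested genes, and 26.9% of all tested genes did not overlap in either direction. The median log2 fold change (muscle over epithelium) of the 10 was 0.60 and that of all tested genes was -0.10. With library size only in place of TMM the median of all genes moved to -0.33, and the share of all calls that were higher in muscle moved from 61.5% to 42.0%. Under that scaling 1 of the 10 genes, Lef1, was called higher in muscle. The count of 2 fell to 0 without muscle replicate 1, muscle replicate 3 or epithelium replicate 3, and to 1 without epithelium replicate 1 or 2. It was 4 by DESeq2, and also 4 without both replicates numbered 2, whose identifiers in the file header differ from those of the other 4 libraries (called the larger identifier group below). Calls over all tested genes moved too. Toward muscle they were 1274 of 19375 in the main fit, 1954 of 19375 by DESeq2 and 1776 of 16634 in the larger identifier group. They were 809 of 20554 without muscle replicate 1, 716 of 20552 without muscle replicate 3 and 570 of 20230 without epithelium replicate 3.

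**Figure D1:**
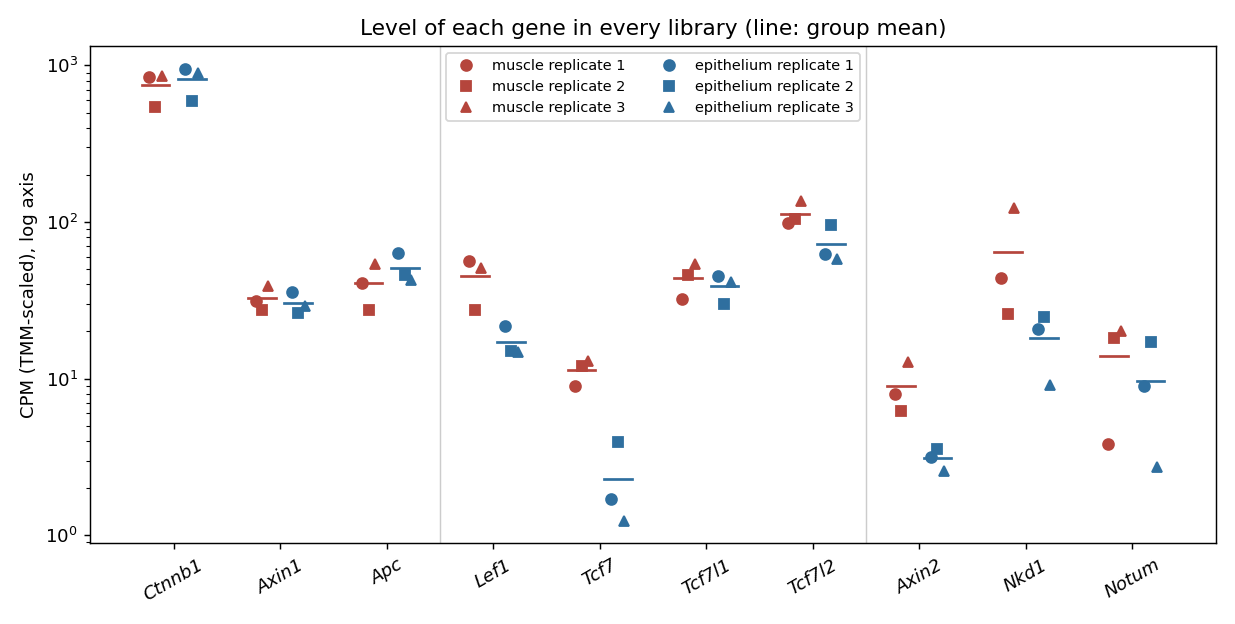
CPM of each gene on a log axis in the 3 muscle libraries (red) and the 3 epithelial libraries (blue), with a line at each group mean and the replicate number given by the marker shape. Muscle and epithelial points do not overlap for Lef1, Tcf7, Tcf7l2, Axin2 and Nkd1, and they overlap for Ctnnb1, Axin1, Apc, Tcf7l1 and Notum.

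Ctnnb1 encodes beta-catenin itself (ENSMUSG00000006932.17, GRCm38 chr9:120929216-120960507, plus strand). Its muscle libraries, in the order of replicates 1, 2 and 3 used throughout, had 848, 542 and 856 CPM, and its epithelial libraries had 955, 595 and 899 CPM. Both replicates numbered 2 were the low ones, and the groups overlapped. The means were 748 ± 179 CPM (SD, n = 3) in muscle and 816 ± 194 CPM in epithelium. This gave a log2 fold change of -0.12 ± 0.29 (SE, edgeR adjusted p = 0.93), with a 95% interval from -0.79 to 0.54, and its sign turned positive without muscle replicate 2 or epithelium replicate 1. Ctnnb1 was the most abundant of the 10 per kilobase of merged exons in both populations, at 144 ± 34.5 CPM per kb in muscle and 157 ± 37.3 CPM per kb in epithelium. Its counts, from 8898 to 51366 per library, were also far above those of the other 9. Some of its exon bases (782 of 5192) are shared with Ulk4 on the opposite strand and the microRNA gene Mir7090, and this kit does not mark strand, so reads from the shared bases cannot be told apart.

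Neither destruction complex scaffold passed the test. Axin1, the constitutive Axin (ENSMUSG00000024182.16, GRCm38 chr17:26138688-26195811, plus strand), had 31.4, 27.6 and 39.3 CPM in the muscle libraries and 35.7, 26.2 and 29.2 CPM in the epithelial ones. The groups overlapped, at means of 32.7 ± 6.0 and 30.4 ± 4.83 CPM (SD, n = 3). Its log2 fold change of 0.11 ± 0.25 (edgeR adjusted p = 0.93, 95% interval from -0.45 to 0.67) took the opposite sign in 6 of the 16 alternative fits. Apc, the large scaffold mutated in colorectal cancer (ENSMUSG00000005871.15, GRCm38 chr18:34220924-34322552, plus strand), had 41.1, 27.6 and 54.1 CPM in muscle and 63.4, 45.7 and 42.6 CPM in epithelium. The muscle libraries spread over 1.96-fold and overlapped the epithelial ones. The log2 fold change was -0.30 ± 0.30 (edgeR adjusted p = 0.76, 95% interval from -0.98 to 0.37). For Ctnnb1, Axin1 and Apc the libraries of the populations thus overlapped and the 95% interval spanned 0, which does not show that their levels are equal.

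Lef1 kept its call in more of the alternative fits than Tcf7. This high-mobility-group factor (ENSMUSG00000027985.14, GRCm38 chr3:131110471-131224356, plus strand) had 56.8, 27.5 and 51.1 CPM in the muscle libraries. The epithelial libraries had 21.5, 15.0 and 14.8 CPM. The lowest muscle library, replicate 2, was 1.28-fold above the highest epithelial one, and muscle replicate 2 was also the muscle library with the lowest smooth muscle marker sum (4137 CPM against 16896 and 17828.5 CPM). The part of that in the Lef1 values was not tested. The means were 45.1 ± 15.5 and 17.1 ± 3.85 CPM (SD, n = 3), and the log2 fold change was 1.40 ± 0.32 (edgeR adjusted p = 0.025, 95% interval from 0.66 to 2.13). The change passed in 12 of 16 alternative fits, with an adjusted p from 0.0023 to 0.13, and had the same direction in all 16. The 4 fits that lost it each left out a library: muscle replicate 1 (adjusted p = 0.085), muscle replicate 3 (0.075), epithelium replicate 2 (0.073) or epithelium replicate 3 (0.13). Of the 8788 exon bases of Lef1, 1208 are shared with the antisense gene Gm43352 on the opposite strand. Axin2 (209 of 5506 bases) and Tcf7l1 (179 of 3924) also share exon bases with antisense genes. Reads from these shared bases cannot be assigned to a strand, and their part in the values was not tested.

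Tcf7 (also called TCF-1, ENSMUSG00000000782.15, GRCm38 chr11:52252371-52283014, minus strand) had the largest fold of the 10. The muscle libraries had 8.93, 12.1 and 13 CPM, and the epithelial libraries had 1.71, 3.94 and 1.24 CPM. The epithelial values rest on only 92, 59 and 33 counts. In epithelium replicate 3, Tcf7 stood 2.86-fold above the background of receptor genes. Every muscle library was at least 2.27-fold above every epithelial one. The highest epithelial value came from replicate 2, the epithelial library with the most background counts and with 2213 CPM of fibroblast and mesenchyme markers, against 280 and 374 CPM in the other 2. Whether that carried Tcf7 RNA was not tested. The means were 11.3 ± 2.13 and 2.30 ± 1.44 CPM (SD, n = 3), and the log2 fold change was 2.31 ± 0.62 (edgeR adjusted p = 0.047, 95% interval from 0.90 to 3.72). The call was close to the threshold: it passed in 7 of 16 alternative fits, including the one without epithelium replicate 2 (adjusted p = 0.016). It was lost without any 1 of the other 5 libraries (adjusted p from 0.070 to 0.23), with the stricter filter (0.050) and under both other scalings (0.079 and 0.13).

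Tcf7l1, the repressor-type factor also called TCF-3 (ENSMUSG00000055799.13, GRCm38 chr6:72626378-72789254, minus strand), did not separate the populations. It had 32.5, 45.9 and 54.2 CPM in muscle and 45.5, 30.1 and 41.4 CPM in epithelium, and the groups overlapped. Its difference was 0.18 ± 0.28 on the log2 scale (edgeR adjusted p = 0.89, 95% interval from -0.44 to 0.80), and its sign turned negative in 3 of 16 alternative fits, with library size only among them. Tcf7l2, also called TCF-4 (ENSMUSG00000024985.19, GRCm38 chr19:55741820-55933654, plus strand), had 98.0, 104 and 137 CPM in muscle and 62.4, 95.8 and 58.4 CPM in epithelium. The groups did not overlap, but the gap between muscle replicate 1 and epithelium replicate 2 was only 1.02-fold. At a log2 fold change of 0.65 ± 0.27 it missed the threshold (edgeR adjusted p = 0.21, 95% interval from 0.025 to 1.27, higher in muscle in all 16 alternative fits, adjusted p from 0.042 to 0.76). It passed in 1 of them, among the 4 libraries of the larger identifier group.

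**Figure D2:**
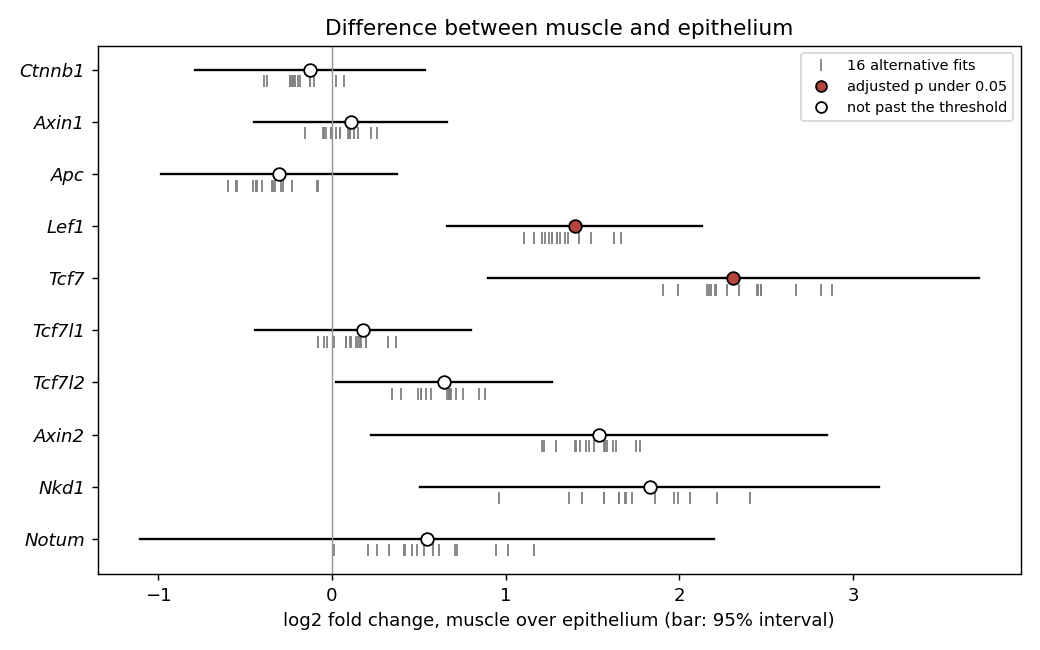
Log2 fold change of muscle over epithelium for each of the 10 genes (circle, filled where the adjusted p is under 0.05), with its 95% interval (bar) and the values of the alternative fits (grey ticks). Lef1 at 1.40 and Tcf7 at 2.31 are filled, and the intervals of Tcf7l2, Axin2 and Nkd1 lie above 0 although their adjusted p-values do not pass.

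The make-up of Tcf/Lef RNA within each library does not depend on scaling between libraries, so it was compared as a description. Per kilobase of merged exons, Lef1 and Tcf7 together made up 33.7%, 24.7% and 26.8% of the RNA of the 4 genes in muscle replicates 1 to 3. In epithelium replicates 1 to 3 they made up 14.2%, 14.7% and 11.1%. The muscle libraries lay above all epithelial ones, also with the longest coding transcript as the length (22.9% to 35.0% against 13.9% to 17.8%) and by counts without a length (20.9% to 33.5% against 13.1% to 17.7%). Tcf7 alone was 11.6% to 14.7% of the 4 in muscle and 2.44% to 6.90% in epithelium. Tcf7l1 was the largest of the 4 in epithelium replicates 1 and 3, with 53.2% and 54.5%, while epithelium replicate 2 had 35.2% and was led by Tcf7l2 with 50.1%. In muscle, Tcf7l2 led in all 3 libraries, with 37.9% to 38.8%. The sum of the 4 genes was 29.3 to 40.2 CPM per kb in muscle and 19.4 to 21.8 CPM per kb in epithelium. With the longest coding transcript as the length, Tcf7l2 ranked above Tcf7l1 in the epithelial means too (19.4 against 12.8 CPM per kb), so the order of that pair depends on which transcripts the cells use. Lef1 counts were 175%, 60.0% and 94.2% of Tcf7l1 counts in the muscle libraries and 47.3%, 49.8% and 35.7% in the epithelial ones, again without overlap. These shares and ratios use the same counts as the calls of Lef1 and Tcf7, so they are no separate support for them. They were not tested, since the genes were chosen with earlier results known.

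**Figure D3:**
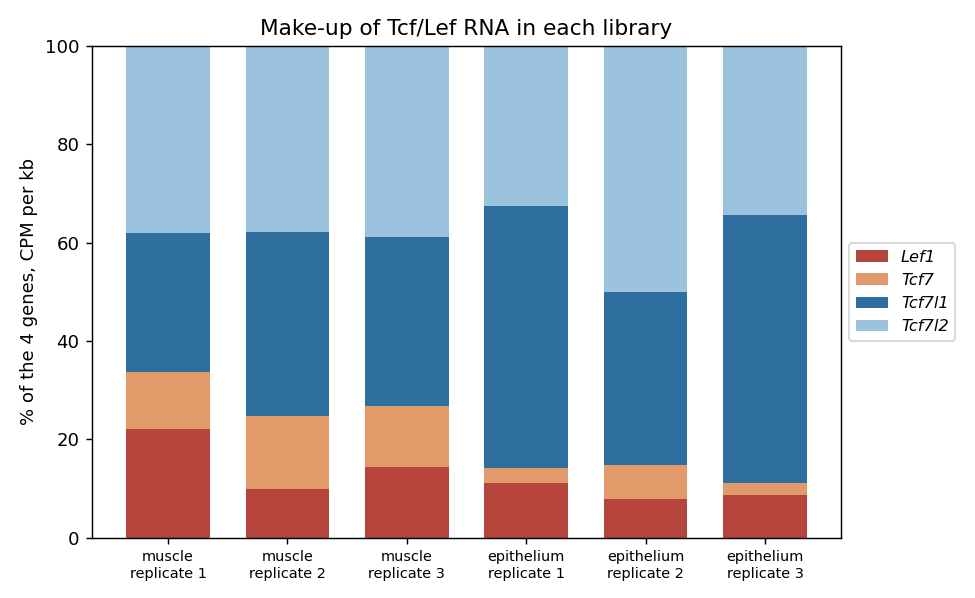
Share of Lef1, Tcf7, Tcf7l1 and Tcf7l2 in their summed CPM per kb of merged exons, in percent, for each of the 6 libraries. The red and orange segments (Lef1 and Tcf7) reach 24.7% to 33.7% in the muscle libraries and 11.1% to 14.7% in the epithelial ones.

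Among the feedback inhibitors, Axin2 and Nkd1 were higher in every muscle library than in any epithelial one, but neither passed the threshold. Axin2, widely used as a readout of canonical Wnt signalling (ENSMUSG00000000142.15, GRCm38 chr11:108920349-108950783, plus strand), had 7.94, 6.24 and 12.7 CPM in muscle and 3.18, 3.54 and 2.55 CPM in epithelium. The lowest muscle value was 1.76-fold above the highest epithelial value. These levels rest on 125 to 504 counts per muscle library and 53 to 171 per epithelial library. Muscle was higher by 1.54 ± 0.58 on the log2 scale (edgeR adjusted p = 0.15, 95% interval from 0.23 to 2.85), higher in muscle in all 16 alternative fits with an adjusted p from 0.033 to 0.75, and it passed only by DESeq2. Set against its paralog Axin1 within the same library, Axin2 counts were 25.3%, 22.6% and 32.4% of Axin1 counts in the muscle libraries and 8.92%, 13.5% and 8.74% in the epithelial ones. The ratio was thus higher in every muscle library, and it does not depend on the scaling. It was not tested, since the genes were chosen with earlier results known.

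Nkd1 (ENSMUSG00000031661.12, GRCm38 chr8:88521354-88594884, plus strand) was the most uneven of the non-overlapping genes. The muscle libraries had 44.1, 25.9 and 123 CPM, and the epithelial ones 20.8, 24.6 and 9.09 CPM. Muscle replicate 3 had 4.77-fold more than muscle replicate 2, which stood only 1.05-fold above epithelium replicate 2. On the log2 scale muscle was higher by 1.83 ± 0.58 (edgeR adjusted p = 0.087, 95% interval from 0.51 to 3.15). It was 0.96 without muscle replicate 3 (adjusted p = 0.33) and 2.22 without muscle replicate 2, where it passed (0.026). DESeq2 (0.032) and the fit on the larger identifier group (0.049) also called it.

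Notum (ENSMUSG00000042988.10, GRCm38 chr11:120653788-120661175, minus strand) varied more within each population than between them. It had 3.80, 18.2 and 20.1 CPM in muscle and 9.03, 17.1 and 2.74 CPM in epithelium, a range of 5.28-fold within muscle and 6.24-fold within epithelium. The log2 fold change of 0.55 ± 0.73 (edgeR adjusted p = 0.86) had a 95% interval from -1.11 to 2.20, the widest of the 10. Its exons share 918 bases with annotated antisense genes, so reads of either strand may be counted together. None of the 3 feedback inhibitors passed, and the interval of Notum holds the estimates of both Axin2 and Nkd1. Whether the 3 differ from each other was not tested.

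By level per kilobase of merged exons, the order in muscle was Ctnnb1, Nkd1, Tcf7l2, Tcf7l1, Axin1, Notum, Lef1, Tcf7, Apc and Axin2, with means from 144 down to 1.63 CPM per kb. In epithelium it was Ctnnb1, Tcf7l1, Tcf7l2, Axin1, Notum, Nkd1, Apc, Lef1, Tcf7 and Axin2, from 157 down to 0.56 CPM per kb. Neighbours in these orders overlapped between libraries except Ctnnb1 over the next gene in both populations, Tcf7 over Apc in muscle, and Apc over Lef1 and Lef1 over Tcf7 in epithelium. Nkd1 was thus sixth in epithelium and second in muscle, though its place in muscle rests on replicate 3, the only muscle library in which it exceeded Tcf7l2. Lef1, whose merged exons are much longer than its longest coding transcript (8788 against 3482 bases), moved to the fifth place in both populations with the latter length.

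The promoters of Lef1 and Axin2 are shown because a Tcf/Lef gene that is itself a target, and the standard readout, are where Tcf motifs are usually looked for. The sequences are the 250 bases before RefSeq start sites (GRCm38.p6, 5′ to 3′ on the gene's strand), in lower case, with matches to TCAAAG or its reverse complement CTTTGA, the core of the Tcf/Lef motif, in capitals. RefSeq promoters were found for 7 of the 10 genes, not for Axin1, Apc or Notum.
Axin2, chr11:108920099-108920348, plus strand: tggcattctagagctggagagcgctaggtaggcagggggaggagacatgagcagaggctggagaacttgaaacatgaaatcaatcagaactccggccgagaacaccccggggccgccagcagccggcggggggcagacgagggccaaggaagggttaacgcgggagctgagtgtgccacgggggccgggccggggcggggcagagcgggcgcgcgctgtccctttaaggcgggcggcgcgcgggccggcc
Lef1, first start site, chr3:131110047-131110296, plus strand: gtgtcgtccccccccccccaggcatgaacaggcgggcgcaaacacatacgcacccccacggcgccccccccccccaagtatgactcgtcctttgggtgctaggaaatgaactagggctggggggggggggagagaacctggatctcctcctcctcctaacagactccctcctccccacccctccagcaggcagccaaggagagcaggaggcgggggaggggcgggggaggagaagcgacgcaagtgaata
Lef1, internal start site, chr3:131156044-131156293, plus strand: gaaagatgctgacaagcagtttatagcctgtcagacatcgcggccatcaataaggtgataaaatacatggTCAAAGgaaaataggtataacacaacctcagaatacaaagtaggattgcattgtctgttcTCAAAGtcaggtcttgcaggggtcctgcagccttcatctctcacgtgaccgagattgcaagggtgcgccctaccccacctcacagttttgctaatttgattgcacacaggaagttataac
The core was found in 1 of the 13 windows of these 7 genes, the internal Lef1 window printed above. Its 2 matches have their first bases at positions -180 and -120 from that start site. Lef1 also had windows at chr3:131110073-131110322 and chr3:131112541-131112790, which are not printed and held no match. The latter also lies inside the gene. Of all 32851 promoter windows of the same length, 13.8% held the core. The longer form ATCAAAG, which contains the core, was found in none of the 13 windows and in 3.21% of all. All 250 bases of the first Lef1 window lie within exons of an overlapping gene. The printed internal window lies in an intron of Lef1, outside annotated exons, and the deposited counts per gene do not say which start site was used. A match is a run of letters and not a bound site, and a window without one says only that these letters are not in it.

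The rest of the pathway was read from 4 lists by role. Over all tested genes, 10.7% were called, 6.58% toward muscle and 4.11% toward epithelium. Of 26 destruction complex genes and regulators, 1 was higher in muscle, 2 were higher in epithelium and 23 did not pass. Dixdc1, a DIX-domain protein that acts with Dishevelled and Axin, had 64.1, 37.8 and 57.1 CPM in muscle and 25.7, 21.5 and 16.3 CPM in epithelium, a log2 fold change of 1.32 ± 0.29 (edgeR adjusted p = 0.019). Ccdc88c, the Dishevelled-binding protein Daple, had 12.6, 6.49 and 8.67 CPM in muscle and 66.8, 22.7 and 35.9 CPM in epithelium (log2 fold change -2.18 ± 0.43, edgeR adjusted p = 0.012, past the threshold in all 16 alternative fits). Frat2, a GSK3-binding protein that favours beta-catenin stability, had a log2 fold change of -2.0 ± 0.54 (edgeR adjusted p = 0.047), which passed in 6 of 16 alternative fits. Leaving out 1 library, the adjusted p of Dixdc1 reached 0.11 and that of Frat2 0.13. The kinase genes that phosphorylate beta-catenin did not pass: Gsk3b had a log2 fold change of 0.30 ± 0.34 and Csnk1a1 of 0.29 ± 0.26 (edgeR adjusted p = 0.80 and 0.72). Dvl2, a Dishevelled gene, had 0.39 ± 0.27 (0.55). The median of the list was 0.18.

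Of 31 nuclear partners of beta-catenin and Tcf, none was higher in muscle and 1 was higher in epithelium. The shares of all tested genes called in these directions were 6.58% and 4.11%. In edgeR, 5 of the 31 had an unadjusted p under 0.05, a cut for which no share of all tested genes was computed. Limma-voom called 2 higher in muscle and DESeq2 none, and DESeq2 called 3 higher in epithelium. Over all 19375 tested genes, limma-voom called 1593 higher in muscle, and DESeq2 called 1585 higher in epithelium. The called gene was Tle3, a Groucho-type co-repressor that Tcf factors recruit. It had 15.2, 23.3 and 29.2 CPM in muscle and 58.3, 48.3 and 49.6 CPM in epithelium, without overlap. The log2 fold change was -1.20 ± 0.28 (edgeR adjusted p = 0.026), past the threshold in 12 of 16 alternative fits, and at most 0.091 leaving out 1 library. Bcl9, which links beta-catenin to Pygopus, had 0.12 ± 0.32 (0.94). The median of the list was -0.014.

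Of 25 tested feedback and target genes other than the 10, 5 were higher in muscle and 1 in epithelium, against 6.58% and 4.11% of all tested genes. Sfrp2, a secreted Wnt-binding protein (log2 fold change 3.30 ± 0.68, edgeR adjusted p = 0.016), the T-box gene Tbx3 (3.11 ± 0.50, 0.0046), the adhesion receptor gene Cd44 (2.14 ± 0.47, 0.020) and Myc (2.01 ± 0.28, 0.0023), a growth regulator, were higher in muscle. Myc had the smallest error of these 4, at 152, 140 and 157 CPM in muscle and 47.8, 37.8 and 25.5 CPM in epithelium. The remaining one was Bambi (1.57 ± 0.26, adjusted p = 0.0055), a pseudoreceptor of the TGF-beta family, which was chosen after its values were seen. Toward epithelium the call was Lgr5, an R-spondin receptor, with 3.19, 8.74 and 2.91 CPM in muscle and 50.2, 41.8 and 40.9 CPM in epithelium (-3.17 ± 0.45, adjusted p = 0.0025). Myc, Tbx3, Bambi and Lgr5 passed in all 16 alternative fits, Cd44 in 14 and Sfrp2 in 12, and leaving out 1 library took the adjusted p of these last 2 to 0.088 and 0.083. The list had a median of 0.30 and moved in both directions, and its genes answer to other signals as well as to beta-catenin.

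At the junction, 7 of 16 cadherin and catenin genes passed, 3 toward muscle and 4 toward epithelium, at a list median of -0.31. Of all tested genes, 10.7% passed, 6.58% toward muscle and 4.11% toward epithelium. Epithelium had more RNA of Cdh1, the epithelial cadherin (-7.61 ± 0.54, edgeR adjusted p = 0.00012), and of the p120-family gene Arvcf (-2.57 ± 0.32, 0.0015), the alpha-catenin-like gene Ctnnal1 (-1.73 ± 0.22, 0.0015) and Pkp4 (-1.16 ± 0.25, 0.019). Muscle had more of the cadherin genes Cdh6 (3.53 ± 0.55, edgeR adjusted p = 0.0040) and Cdh11 (3.23 ± 0.44, 0.0022) and of the alpha-catenin gene Ctnna2 (2.24 ± 0.47, 0.015). Pkp4 and Ctnna2 each passed in 13 of 16 alternative fits, and leaving out 1 library took their adjusted p to 0.086 and 0.065 at most. Jup, the beta-catenin paralog plakoglobin, had 142, 92.8 and 119 CPM in muscle and 272, 192 and 219 CPM in epithelium, without overlap, at a log2 fold change of -0.95 ± 0.26 and an edgeR adjusted p of 0.0501, just over the threshold. It passed in 10 of 16 alternative fits. Ctnna1 (-0.33 ± 0.29, 0.70) and Ctnnd1 (0.26 ± 0.28, 0.80), the common alpha-catenin and p120-catenin, did not pass. Whether the lists differ from each other was not tested.

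**Figure D4:**
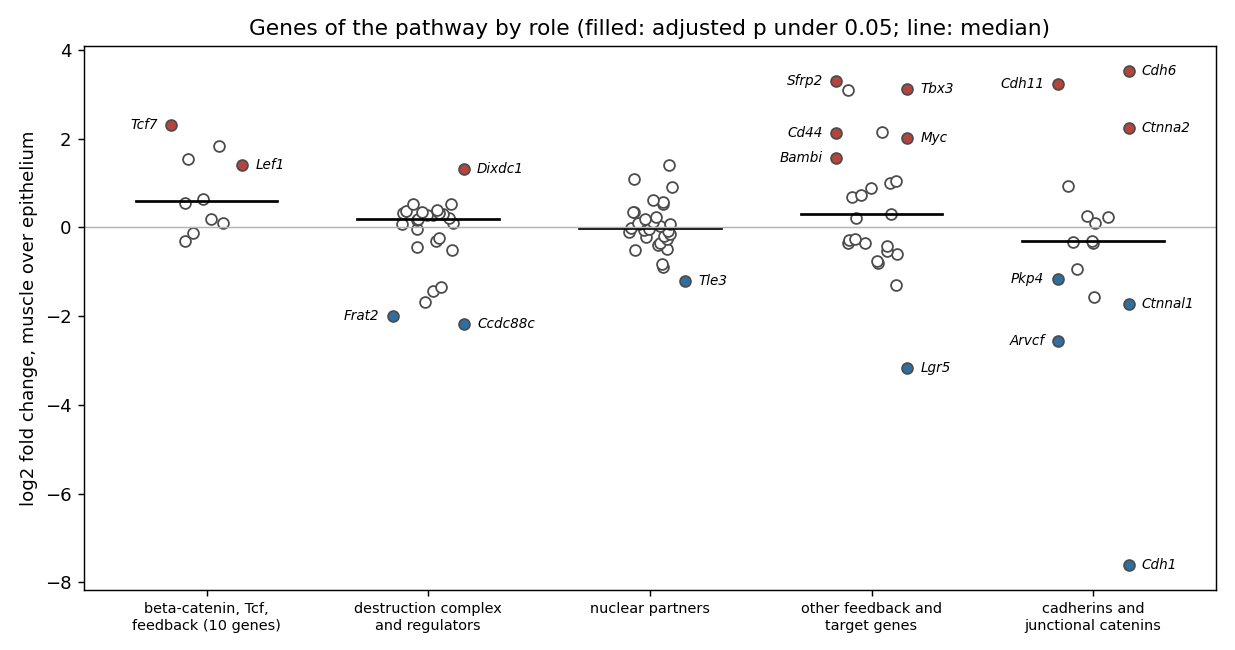
Log2 fold change of muscle over epithelium for each tested gene of the 5 groups, 1 point a gene, filled and named where the adjusted p is under 0.05 (red, higher in muscle; blue, higher in epithelium), with a line at each median. Lef1 and Tcf7 are the filled points among the 10 genes, Tle3 is the filled point among the nuclear partners, and Cdh1 lies lowest at -7.61.

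Markers of other cells were read beside these results because Lef1 and Tcf7 are also lymphoid genes and because connective tissue lies next to the muscle. The 9 immune and lymphoid markers in the table summed to 1.60, 43.7 and 7.15 CPM in the muscle libraries and to 1.25, 35.8 and 24.3 CPM in the epithelial ones, and none of the 9 differed in edgeR at an unadjusted p under 0.05. Ptprc, the pan-leukocyte marker, had 22, 160 and 4 counts in muscle and 0, 173 and 152 in epithelium. The lymphoid marker Cd3e had 6, 76 and 10 counts in muscle and 0, 39 and 81 in epithelium, and Cd3g had 2, 30 and 4 and 0, 41 and 25. The myeloid markers Csf1r and Tyrobp had 6, 279 and 117 counts and 0, 164 and 104 counts in the muscle libraries, and 33, 137 and 209 counts and 1, 25 and 41 counts in the epithelial ones. The 10 fibroblast and mesenchyme markers summed to between 8172 and 10883.5 CPM in muscle and between 280 and 2213 CPM in epithelium, and 6 of them were higher in muscle. The 9 cartilage markers in the table summed to between 1009 and 1591 CPM in muscle and between 363 and 660 CPM in epithelium, and 4 were higher in muscle. Muscle cells and other mesenchymal cells in the GFP gate cannot be told apart in these libraries, so the higher Lef1 and Tcf7 values belong to the GFP-sorted population as a whole. Endothelial markers summed to 46.8 to 78.0 CPM in muscle and 13.5 to 67.5 CPM in epithelium, and neural and glial markers to 41.6 to 76.0 and 130 to 153 CPM. The only called gene of the latter list was Erbb3, which is also made by epithelia, with 8.62 to 16.1 CPM in muscle and 118, 65.4 and 87.9 CPM in epithelium. Erythroid and mesothelial markers reached at most 36.5 and 16.4 CPM in any library. The part of these cells in the results was not tested.

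For Axin2, the genes with the most similar pattern of log2 CPM over the 6 libraries were Reck (Pearson r = 0.998), Ntn3 (0.995) and Neo1 (0.995). For Lef1 they were Pfkm (0.999), Fblim1 (0.999) and Brd9 (0.997). These are the highest of 12737 correlations each and are given as a description, since 6 libraries of 2 populations share their group difference.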

How the data were processed

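RNA of 6 libraries was extracted with Trizol, turned into cDNA with a SMART-Seq v4 kit and fragmented with Nextera XT, per the labels' protocols. The deposited table holds raw counts per gene symbol. The submitters' processing notes name Trim Galore, Bowtie2, Cufflinks, DESeq and the build mm10. Their roles, the counter and the annotation are not given in the sources used here. Without molecular identifiers, counts include PCR copies. All 6 value columns were used.

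Genes were filtered with edgeR's filterByExpr in R 4.3.3, scaled by TMM and compared (19375 genes) with edgeR 4.0.16 (quasi-likelihood, robust, two-sided, no covariate, Benjamini-Hochberg over all tested genes, threshold 0.05). SE came from the test statistic. An exact permutation test of 3 against 3 cannot go below 0.10. Tests were checked on simulated data. The 16 alternative fits changed the tool (DESeq2 1.42.0, limma 3.58.1 voom), scaling, filter, design or libraries. Positions and merged exon lengths came from GENCODE vM21 (GRCm38, the assembly of mm10). All members are described. From each other list, up to 4 genes per direction past the threshold (average log2 CPM at or above 2) are named, largest fold first, with 8 preset genes. Members and lists were chosen with earlier results of these data known.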

Additional observations from a re-analysis of the deposited data

How the results depend on the processing

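Depth and background limit the genes of low level: Tcf7 and Axin2 in epithelium rest on few counts, and 3 libraries carry most of the background. With 3 libraries a group, several calls depend on single libraries. All 10 genes were tested in all 16 fits, and Lef1, Tcf7, Tcf7l2, Axin2, Nkd1, Apc and Notum kept their sign in all of them.

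Counts moved as follows. Genes of the 10 higher in muscle (2) were 1 with RLE size factors, library size only, the stricter filter or the replicate block, 4 with the larger identifier group only or DESeq2, 0 at an adjusted p under 0.01 and 0 to 2 leaving out 1 library. Destruction complex genes higher in muscle (1) were 0 at an adjusted p under 0.01 and 0 to 1 leaving out 1 library. Those higher in epithelium (2) were 1 with RLE size factors or the replicate block, 4 with the background covariate or DESeq2, 0 at an adjusted p under 0.01 and 1 to 3 leaving out 1 library. Nuclear partners higher in muscle (0) were 1 with the larger identifier group only or the background covariate, 2 with limma-voom and 0 to 1 leaving out 1 library. Those higher in epithelium (1) were 5 with library size only, 0 with the larger identifier group only, 2 with the background covariate, 3 with DESeq2, 0 at an adjusted p under 0.01 and 0 to 1 leaving out 1 library. Other feedback and target genes higher in muscle (5) were 3 at an adjusted p under 0.01 and 3 to 6 leaving out 1 library. Those higher in epithelium (1) were 2 with the replicate block, the identifier group as a term, the larger identifier group only, the background covariate or DESeq2. Cadherins and junctional catenins moved from 2 to 4 toward muscle and from 3 to 5 toward epithelium leaving out 1 library. The cause was not tested.

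The sign of a log2 fold change reversed for 3 genes, none of them called. Leaving out 1 library, Ctnnb1 ranged from -0.37 to 0.071, Tcf7l1 from -0.027 to 0.37 and Axin1 from -0.051 to 0.26. Ctnnb1 was 0.071 without muscle replicate 2 and 0.022 without epithelium replicate 1. Tcf7l1 was -0.046 with library size only, -0.078 with the larger identifier group only and -0.027 without epithelium replicate 2. Axin1 was -0.0062 with RLE size factors, -0.15 with library size only, -0.0066 with DESeq2, -0.034 without muscle replicate 3, -0.051 without epithelium replicate 2 and -0.045 without epithelium replicate 3.

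Over all genes, the 2071 calls became 3539 with DESeq2, 3178 with the identifier group as a term and 1169 without epithelium replicate 3. With the larger identifier group only, 2928 of 16634 tested genes were called. Same-numbered libraries deviated from their group means with a correlation of 0.59, 0.73 and -0.57 for numbers 1 to 3 over all tested genes. Over the 4123 genes of higher level it was 0.17, 0.15 and -0.17. These values do not settle whether the libraries are paired, and the numbers were not taken to pair them. With the replicate block 2418 genes were called, and of the 10 genes Tcf7 was not (adjusted p = 0.051), nor were Frat2 (0.075) and Sfrp2 (0.057) of the other lists.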
